A study of Mus musculus with 24 samples.

Results

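The small proline-rich (Sprr) genes Sprr1a, Sprr1b, Sprr2b, Sprr2d, Sprr2e, Sprr2h, Sprr3 and Sprr4 were followed by name through an RNA-Seq count table of mouse embryonic skin. They are 8 of 17 Sprr symbols and of 54087 gene symbols in the table. The skin came from embryos at E18.5 (E, embryonic day) that were WT (Dsg1+/+), HET (Dsg1+/-) or KO (Dsg1-/-) for the Dsg1 cluster, which encodes desmoglein 1, a cadherin of the desmosomes that hold keratinocytes together. The KO allele is a CRISPR/Cas9 deletion of the tandem Dsg1a, Dsg1b and Dsg1c genes in every cell, made in C57BL/6J zygotes and carried by a backcrossed line from 1 founder. Embryos of both sexes were used and no group received a treatment. Each genotype had 8 libraries, which were summed by the number in their titles into 5 columns per genotype, called replicates 1 to 5 here. That each number stands for 1 embryo is not given by the labels, so p-values measure the spread between these columns.

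SPRR proteins are short, proline-rich, and are joined by transglutaminases to involucrin, loricrin and each other in the cornified envelope, the protein shell that replaces the plasma membrane of the outermost keratinocytes. Sprr1a, Sprr1b and the Sprr2 genes are known to be induced in stressed, wounded or barrier-deficient epidermis. Sprr3 is best known from the esophagus and other internal squamous epithelia, and Sprr4 from ultraviolet-exposed skin. All lie next to each other in the epidermal differentiation complex on chromosome 3.

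The promoters of Sprr1a, Sprr1b and the 4 listed Sprr2 genes are shown because these are the genes with the largest values below, and because the AP-1 and octamer letters divide them. Each line holds the 200 bases before the RefSeq start on GRCm38.p6, 5′ to 3′ on the strand of the gene. Capitals mark TGANTCA, the AP-1 motif, and ATTTGCAT, the octamer bound by POU factors, both searched on both strands. These motifs were chosen after some of the sequences had been seen.
Sprr2b: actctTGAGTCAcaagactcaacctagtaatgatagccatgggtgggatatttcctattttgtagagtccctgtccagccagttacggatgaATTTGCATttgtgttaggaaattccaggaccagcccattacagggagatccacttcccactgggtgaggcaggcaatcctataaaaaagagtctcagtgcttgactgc
Sprr2d: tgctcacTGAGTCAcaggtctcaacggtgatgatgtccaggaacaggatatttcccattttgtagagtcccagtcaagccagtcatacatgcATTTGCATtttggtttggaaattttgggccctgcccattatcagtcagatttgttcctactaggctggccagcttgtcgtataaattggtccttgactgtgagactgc
Sprr2e: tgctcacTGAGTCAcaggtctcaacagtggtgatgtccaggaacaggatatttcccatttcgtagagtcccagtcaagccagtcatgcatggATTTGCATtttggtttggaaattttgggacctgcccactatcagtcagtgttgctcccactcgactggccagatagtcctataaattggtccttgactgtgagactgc
Sprr2h: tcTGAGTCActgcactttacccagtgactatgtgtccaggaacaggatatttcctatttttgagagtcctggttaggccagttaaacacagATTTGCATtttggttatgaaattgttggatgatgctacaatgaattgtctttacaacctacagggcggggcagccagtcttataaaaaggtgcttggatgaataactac
Sprr1a: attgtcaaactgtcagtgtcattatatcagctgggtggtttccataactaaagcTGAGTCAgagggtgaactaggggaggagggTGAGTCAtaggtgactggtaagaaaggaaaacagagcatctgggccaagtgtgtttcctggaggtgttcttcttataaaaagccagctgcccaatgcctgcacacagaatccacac
Sprr1b: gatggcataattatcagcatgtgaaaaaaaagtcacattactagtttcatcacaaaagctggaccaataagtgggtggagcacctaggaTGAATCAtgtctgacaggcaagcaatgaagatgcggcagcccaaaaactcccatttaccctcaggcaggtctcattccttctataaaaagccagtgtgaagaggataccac
The windows are chr3:92316505-92316704 for Sprr2b, chr3:92338940-92339139 for Sprr2d, chr3:92351943-92352142 for Sprr2e and chr3:92385485-92385684 for Sprr2h, all on the plus strand. Those of Sprr1a, chr3:92485882-92486081, and Sprr1b, chr3:92438780-92438979, lie on the minus strand.

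The 4 Sprr2 promoters share a layout. Each holds TGAGTCA with its first base 193 to 198 bases before the start and ATTTGCAT with its first base 108 or 109 bases before the start. The Sprr1a promoter holds TGAGTCA at 2 places, 146 and 116 bases before the start, and that of Sprr1b holds TGAATCA, 111 bases before the start. Neither motif was found within 250 bases before the start of Sprr3 or Sprr4. Over the same 250 bases, the AP-1 letters were in 6 of 8 listed genes and in 6.75% of 32851 RefSeq promoters. The octamer letters were in 4 of 8 and in 1.6%, and both together in 4 of 8 and in 0.167%. Sprr2f, Sprr2i and Sprr2k, not among the listed genes, also held both at like places. The Sprr2 genes are duplicates of each other, so their matches are not independent, and a match is not a bound site.

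Each of the 24 libraries totalled between 8.98 and 20.96 M counts (M, mega), and each of the 15 columns between 15.28 and 33.68 M. Levels are CPM, counts per M counts of the library after scaling by TMM (trimmed mean of M values), and floors cover counting error only. The summed Dsg1 level was 805 ± 111 CPM in WT, 421 ± 51.5 in HET and 0.547 ± 0.342 in KO (SD, n = 5), with no overlap between any groups (exact permutation test, two-sided, p = 0.00794 in each comparison, the smallest that 5 against 5 columns allow). Of 9 numbers with 2 libraries, the pair of WT replicate 2 stood apart from the other 8. Its counts differed by a chi-square of 15.6 per degree of freedom, against 1.59 to 1.86 in the other pairs. The Y-linked genes summed to 338 CPM in 1 of its libraries and 0.157 in the other, and Xist was at 0.275 and 574 CPM. These are levels of opposite sexes, so this column may hold more than 1 embryo. It was kept as 1 of the 5 WT columns. Without WT replicate 2, 1 of 7 members was called higher in KO than in WT, the 8-gene sum in KO was 436% of WT and 7 ratios between members passed, against 2, 460% and 10 with it. Excluding that pair, Sprr1a, Sprr1b, Sprr2d and Sprr2h differed between the libraries of a number by a median of 0.0622 on the log2 scale and by at most 0.236. Keratinocyte markers were high in all columns (Krt5, Krt14, Krt15, Itga6, Itgb4 and Col17a1 summed to 5660 to 7778 CPM). Bulk skin cannot tell a change in the number of cells of a type from a change in RNA per cell.

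In WT skin the listed genes fell into a well-expressed and a scarce set, compared here as CPM per kilobase of annotated exon, a level corrected for length. Sprr1b was at 27 ± 15.9, Sprr2d at 24 ± 13.1, Sprr2h at 20.3 ± 4.76 and Sprr1a at 11.5 ± 4.27 CPM per kilobase (SD, n = 5). Each of these overlapped its neighbour in that order. Sprr4 followed at 1.19 ± 0.949, Sprr2e at 0.658 ± 0.394, Sprr2b at 0.536 ± 0.456 and Sprr3 at 0.0714 ± 0.0689. The highest Sprr4 column, at 2.13 CPM per kilobase, lay below the lowest Sprr1a column, at 6.90, whereas neighbours within the scarce set overlapped. In KO the order began with Sprr1b at 215 ± 84.4 CPM per kilobase, then Sprr2d at 67.5 ± 51, Sprr2h at 45.9 ± 30.6 and Sprr1a at 39.6 ± 22.5, and each again overlapped its neighbour. The sequence of the listed transcripts allowed most of them to be told apart. All 50-base windows of Sprr1a, Sprr1b, Sprr2h, Sprr3 and Sprr4 were unique among Sprr transcripts of GENCODE vM21, as were 95.7% of those of Sprr2d, 89.8% of Sprr2e and 85.9% of Sprr2b. Sprr2b shared 14.1% of its windows with Sprr2a1, and Sprr2e shared 9.5% with Sprr2i. How the authors counted reads with several matches is not given in the sources used here, so the low counts of Sprr2b and Sprr2e are uncertain.

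The comparison of KO with WT asks how skin without any Dsg1 differed. Sprr1b and Sprr2b rose, 7.95-fold and 7.39-fold, and 5 other tested members had higher mean levels in KO that did not pass the test. The call was an adjusted p of 0.1 or below with a log2 fold change of at least 1 in the quasi-likelihood test of edgeR, adjusted by the Benjamini-Hochberg method over 17094 genes. Of 7 members tested, 2 were called higher, and 0.135% of all tested genes were. The median log2 fold change was 1.78 over the 7 members and -0.01 over all tested genes. Sprr3 did not pass the filter on low counts, and a gene of low count can pass it through the KO columns alone, so these counts are a description.

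Sprr1b, the most abundant member in KO, carried the largest change. Its level was 9.06, 15.1, 28.8, 42.1 and 16.7 CPM in WT replicates 1 to 5. It was 174, 232, 117, 265 and 104 CPM in KO replicates 1 to 5. Every KO column was above every WT column, a separation shared by 1.61% of all tested genes. The log2 fold change was 2.99 ± 0.43 (SE), with an edgeR adjusted p of 0.0171. Without WT replicate 2 it was 2.88 with an edgeR adjusted p of 0.0553, and taking that replicate from either of its libraries alone gave 2.97 and 3.0. Library titles come in 2 formats, and the value was 3.03 (edgeR adjusted p = 0.0118) in the 15 libraries of one format and 2.57 (edgeR adjusted p = 0.522) in the 9 libraries of the other.

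Sprr2b was scarce but rose by a like factor. Its counts were 0, 10, 12, 27 and 9 in WT replicates 1 to 5, the 0 allowing up to 0.15 CPM. They were 107, 154, 15, 98 and 29 in KO replicates 1 to 5. In CPM, 4 KO columns were above all WT columns, and KO replicate 3, at 0.638 CPM, lay below WT replicate 4, at 0.981. The log2 fold change was 2.88 ± 0.62, with an edgeR adjusted p of 0.0793. In the 2 title formats it was 3.32 and 2.27 (edgeR adjusted p of 0.0345 and 0.551). The call did not hold without WT replicate 2 (log2 fold change 2.76, edgeR adjusted p 0.212), and it was lost when any of 9 other columns was left out.

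**Figure D1:**
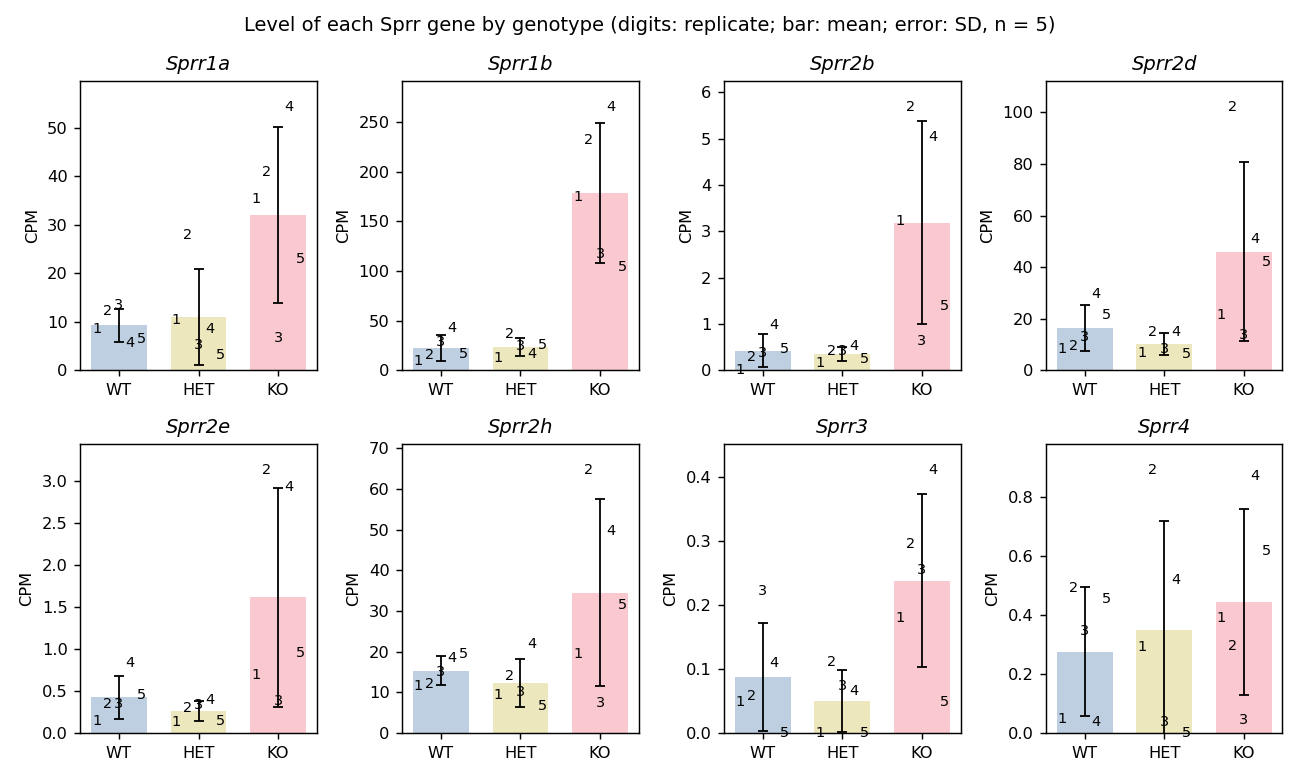
Level of the 8 listed Sprr genes in CPM (vertical axis, linear from 0) by genotype; each digit is the column of that replicate number, bars are means and error bars SD (n = 5). Sprr1b alone has all KO columns above all WT columns, and KO replicate 3 sits at the foot of the KO group for Sprr1a, Sprr2b, Sprr2d, Sprr2e, Sprr2h and Sprr4.

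Sprr1a, the close relative of Sprr1b, did not pass. Its level was 8.58, 12.2, 13.4, 5.56 and 6.49 CPM in WT replicates 1 to 5. It was 35.3, 40.8, 6.55, 54.2 and 22.8 CPM in KO replicates 1 to 5. KO replicate 3 fell inside the WT range and the other 4 above it. The log2 fold change was 1.78 ± 0.60 (SE), with an edgeR adjusted p of 0.15, and without WT replicate 2 it was 1.90 (edgeR adjusted p = 0.248).

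The more abundant Sprr2 genes were uneven among KO columns. Sprr2d was at 8.29, 9.58, 13.0, 29.4 and 21.4 CPM in WT replicates 1 to 5, against 21.6, 102, 13.5, 50.8 and 41.8 in KO. Sprr2h was at 11.4, 12.1, 14.9, 18.4 and 19.3 CPM in WT, against 19.3, 64.6, 7.31, 49.7 and 31.5 in KO. In both, KO replicate 2 was highest and KO replicate 3 lowest, and for Sprr2h the latter was below every WT column. The log2 fold changes were 1.49 ± 0.52 for Sprr2d and 1.18 ± 0.47 for Sprr2h, with edgeR adjusted p of 0.162 and 0.2. Sprr2e had 3 to 23 counts in WT columns and 9 to 85 in KO columns, and 3 KO columns were above all WT columns. Its log2 fold change was 1.89 ± 0.54, with an edgeR adjusted p of 0.111. Without WT replicate 2 the log2 fold changes of Sprr2d, Sprr2h and Sprr2e were 1.35, 1.1 and 1.81, and none was called.

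Sprr3 and Sprr4 stayed near the limit of detection. Sprr3 had 0 to 7 counts in WT columns, 0 to 3 in HET and 1 to 8 in KO, or 0.0873, 0.05 and 0.238 CPM on average. KO was 272% of WT (exact permutation test on log2(CPM + 1), two-sided, p = 0.0794), and without KO replicate 5 it was 327% (exact permutation p = 0.0317). Leaving out any other WT or KO column gave exact permutation p of 0.0635 to 0.159, with 441% at the highest, without WT replicate 3. Against HET, Sprr3 in KO had an exact permutation p of 0.0317. Sprr4 had 1 to 17 counts in WT columns and 1 to 17 in KO columns, and its log2 fold change was 0.59 ± 0.80 with an edgeR adjusted p of 0.698. A difference in Sprr4 was not detectable with these low counts and their spread between columns of a genotype.

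The number of members called depended on single columns. The share of all tested genes called in such fits is not given here, so these counts are a description. Without KO replicate 3, Sprr1a, Sprr1b, Sprr2b, Sprr2d, Sprr2e and Sprr2h were called, 6 in all, with log2 fold changes of 2.04, 3.11, 3.15, 1.73, 2.14 and 1.44. Without WT replicate 4, the WT column with the highest Sprr1b, Sprr2b, Sprr2d and Sprr2e, 4 members were called, whereas without any of 10 other columns Sprr1b alone was. In KO replicate 3, Sprr1b was at 117 CPM against at most 42.1 in WT, whereas the other 5 of these genes lay within or below the WT range. This column also had the highest sums of erythroid markers, 9036 CPM against 1650 to 6066 in WT and HET columns, and of neutrophil markers, 22.3 CPM against 4.40 to 16.6. Their part in the low Sprr values was not tested.

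**Figure D2:**
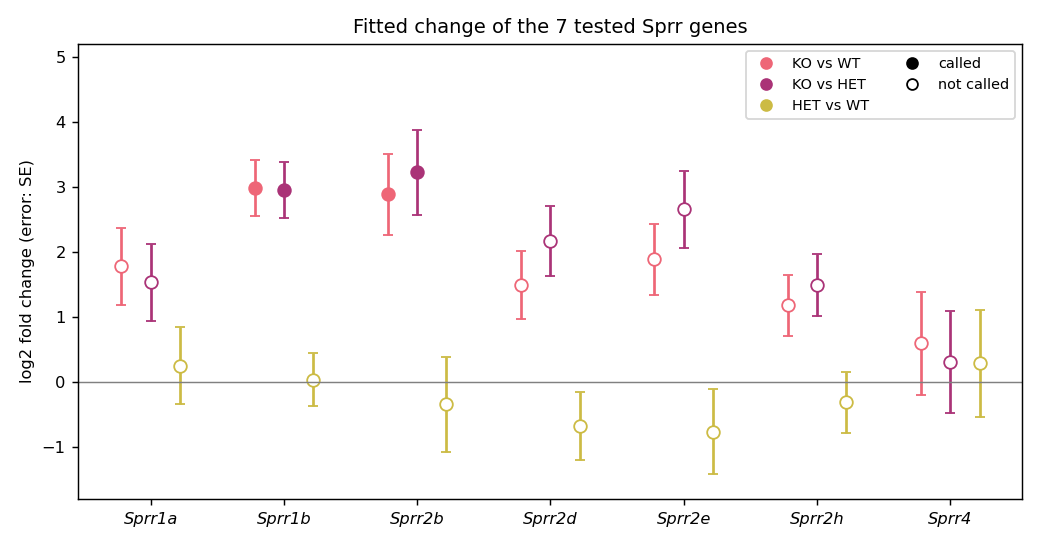
Log2 fold change with SE (vertical axis) of the 7 tested Sprr genes for KO vs WT, KO vs HET and HET vs WT; filled points passed the call and open points did not. Sprr1b and Sprr2b are near 3 in both comparisons with KO, and the HET vs WT points lie between -0.77 and 0.28.

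HET skin, with a single Dsg1 copy, did not show a called difference in any Sprr gene. Of 7 members tested, 0 were called higher or lower, as were 0.0% of all genes, and DESeq2 and limma-voom also called 0 members. No member had an unadjusted p under 0.05, whereas 270 of 17094 genes did. Sprr1b was at 12.6, 36.1, 23.9, 16.8 and 25.5 CPM in HET replicates 1 to 5, all within the WT range. Its log2 fold change was 0.04 ± 0.41, with an edgeR adjusted p of 1.00. The widest differences were those of Sprr2e, -0.77 ± 0.65, and Sprr2d, -0.68 ± 0.53 (edgeR adjusted p of 1.00 for each). The SEs, from 0.41 for Sprr1b to 0.82 for Sprr4, leave room for changes of more than 2-fold in most members.

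KO was next compared with HET, which uses the same KO columns as the comparison with WT, so the results are given side by side and not as independent. Sprr1b and Sprr2b rose here too, with log2 fold changes of 2.95 ± 0.43 and 3.23 ± 0.65 (edgeR adjusted p of 0.0253 and 0.0797). Of 7 members tested, 2 were called higher, against 0.0819% of all tested genes. The Sprr2b call was lost in 9 of 15 fits that left out 1 column (edgeR adjusted p up to 0.227), with limma-voom (adjusted p = 0.134), without a count filter, with only the 2 genotypes, in one title format alone, and with a covariate for dermal markers or for numbers with 2 libraries (edgeR adjusted p of 0.137, 0.199, 0.249, 0.144 and 0.101). Both genes had every KO column above every HET column, as 0.954% of tested genes did. Sprr2b ranged from 0.163 to 0.52 CPM in HET. Sprr2e, Sprr2d, Sprr1a and Sprr2h had log2 fold changes of 2.65, 2.17, 1.53 and 1.49 with edgeR adjusted p of 0.104, 0.138, 0.24 and 0.183, and Sprr4 was at 0.31. Without KO replicate 3 the members called numbered 5, and without WT replicate 4 or KO replicate 5 they numbered 4. For these fits too, the share of all tested genes called is not given. In HET, Sprr1a was spread from 3.15 to 27.8 CPM, the highest being HET replicate 2.

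The make-up of the Sprr pool differed between genotypes. Summed over the 8 genes, the level was 37.6, 50.2, 71.4, 97.5 and 65.3 CPM in WT replicates 1 to 5 and 255, 449, 146, 429 and 203 CPM in KO, so that KO was 460% of WT. HET, at 39.8 to 94.4 CPM, was 89.3% of WT. Sprr1b made up 32.7% ± 8.67 of the sum in WT, 41.4% ± 13.9 in HET and 62.7% ± 12.2 in KO (SD, n = 5), and the lowest KO share, 51.2%, was above the highest WT share, 43.2%. The HET range, 26.4% to 60.9%, overlapped both. Sprr2h went the other way as a share, with 24.8% ± 5.13 in WT and 10.8% ± 4.45 in KO, while its mean level was higher in KO.

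**Figure D3:**
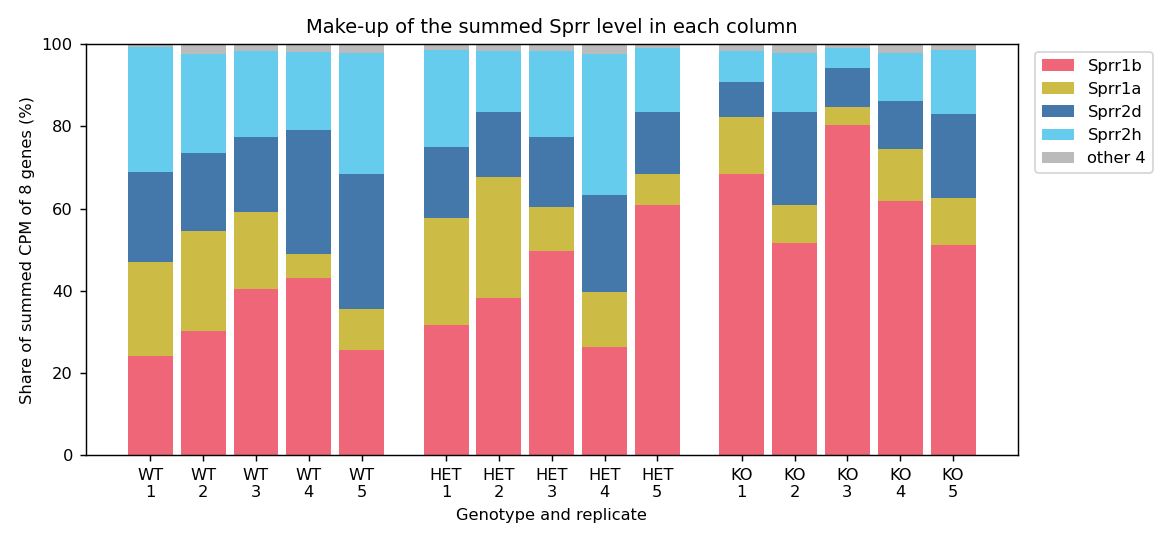
Share of each gene in the summed CPM of the 8 listed Sprr genes (vertical axis, %) in each of the 15 columns; the 4 scarce genes are drawn together. Sprr1b takes 51.2% to 80.3% in KO columns and 24.1% to 43.2% in WT columns.

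Whether members moved by different amounts was tested on the ratio of each pair, as log2 of CPM + 1, with 28 pairs and p-values adjusted over them. The ratio of Sprr1b to Sprr2h was 0.792, 1.25, 1.93, 2.29 and 0.865 in WT replicates 1 to 5, and 9.0, 3.59, 16.0, 5.32 and 3.31 in KO. All KO columns were above all WT columns, and the log2 ratio was 2.20 higher in KO (exact permutation test, two-sided, p = 0.00794, adjusted p = 0.0317). The ratio of Sprr1b to Sprr2d was 1.77 higher on the same scale, also without overlap (exact permutation test, adjusted p = 0.0317). The ratio of Sprr1a to Sprr1b was lower by -1.55 with overlapping columns (exact permutation test, p = 0.0397, adjusted p = 0.101). Sprr2d and Sprr2h did not differ in change beyond their spread, at 0.43 (exact permutation test, adjusted p = 0.194). In all, 10 of 28 ratios had an adjusted p of 0.1 or below, and Sprr1b was in 6 of them. Added to scarce genes, the 1 CPM shrinks their changes, so ratios with Sprr2b, Sprr2e, Sprr3 or Sprr4 partly measure abundance. Without KO replicate 3, 16 ratios passed.

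Within genotypes, the Sprr2 genes varied together and Sprr1b apart from Sprr1a. After subtracting each genotype's mean of log2(CPM + 1), Pearson's r over 15 columns was 0.91 between Sprr2d and Sprr2h, 0.89 between Sprr2b and Sprr2e and 0.86 between Sprr2e and Sprr2h. These 4 genes carry the shared promoter layout printed above, but so do Sprr2f, Sprr2i and Sprr2k, which had at most 12 counts in any column. Part of the reads of Sprr2b, Sprr2d and Sprr2e may be shared with other Sprr genes. Among Sprr2b, Sprr2d, Sprr2e and Sprr2h, only Sprr2d and Sprr2e had transcript windows in common, 3.8% of those of Sprr2d and 4.0% of Sprr2e. Sprr2b shared windows only with Sprr2a1, Sprr2a2 and Sprr2a3, and all windows of Sprr2h were unique. The Sprr2 pairs with r given above thus had no window in common. The part of promoters or shared reads in the correlations was not tested. Sprr1a was nearest to Sprr4 (r = 0.79) and was at 0.31 with Sprr1b. WT replicate 4 had the highest WT level of Sprr1b and the lowest of Sprr1a. In KO, by contrast, both genes were highest in KO replicates 4, 2 and 1, in that order. Their lowest KO columns differed, KO replicate 3 for Sprr1a and KO replicate 5 for Sprr1b. The values are descriptions, all taken over the same 15 columns.

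**Figure D4:**
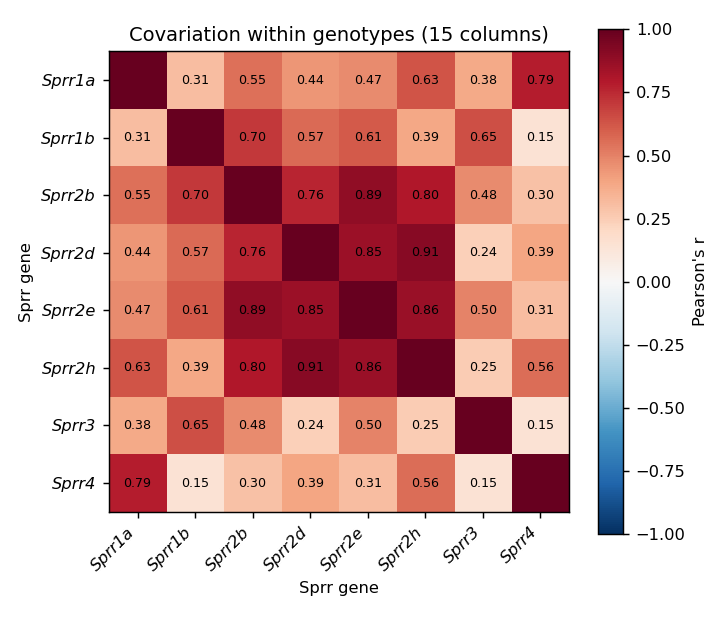
Pearson's r between the 8 listed Sprr genes (both axes) over 15 columns, after each genotype's mean of log2(CPM + 1) was subtracted. The block of Sprr2b, Sprr2d, Sprr2e and Sprr2h runs from 0.76 to 0.91, and Sprr1a with Sprr1b is at 0.31.

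By the same measure, the genes outside the family most like Sprr1b among 15053 ranked were Tfe3, a transcription factor of lysosomal genes (r = 0.92), Zfat (0.91), Tnfrsf1a, a receptor of tumor necrosis factor (0.88), Dnm2, the endocytic GTPase dynamin 2 (0.87), and Atp6v0d1, a subunit of the vacuolar proton pump (0.87). Those most like the sum of the 8 genes were Furin, a proprotein convertase (0.97), Gpr160 (0.96), Card14, a keratinocyte scaffold of NF-κB signaling (0.94), Atp6v0d1 (0.94) and Zswim1 (0.94). They were picked as the highest of many and serve as a description.

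The 9 other Sprr symbols added little to the counted pool. Of their 50-base windows, 3.7% were unique in Sprr2a1, 3.5% in Sprr2a2 and 38.9% in Sprr2a3, so the counts of these genes are uncertain. Of the 9 symbols, 3 passed the filter and 0 were called. Sprr2g, annotated as a polymorphic pseudogene, had 2 to 14 counts in WT columns and 34, 57, 3, 77 and 34 in KO replicates 1 to 5. Its log2 fold change was 2.42 ± 0.63, with an edgeR adjusted p of 0.102. Again KO replicate 3 was the low column. Sprr2a3 and Sprr2j-ps were at 0.70 each, and Sprr2a1, Sprr2a2, Sprr2c-ps, Sprr2f, Sprr2i and Sprr2k had at most 12 counts in any column. Summed over all Sprr2 symbols, which does not depend on how counted reads were split among copies, the level was 21.2 to 51.9 CPM in WT and 49.6, 181, 24.3, 116 and 79.8 CPM in KO replicates 1 to 5. Any reads left out for having several matches would be missing from that sum. The fitted log2 fold change of that sum was 1.39 ± 0.47 for KO vs WT and -0.43 ± 0.47 for HET vs WT.

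Among 28 tested genes listed as partners of the cornified envelope, 2 were called higher in KO than in WT and 0 lower, with a median log2 fold change of 0.31. Rptn, which encodes the S100-fused envelope protein repetin, rose from 12.9 ± 6.92 to 136 ± 77.4 CPM (SD, n = 5), a log2 fold change of 3.40 ± 0.54 (edgeR adjusted p = 0.0231), with no overlap. Pglyrp3, in the list although it encodes a peptidoglycan-binding protein and not a structural envelope protein, rose by 1.11 (edgeR adjusted p = 0.0648). Without WT replicate 2 Rptn remained called (3.59, edgeR adjusted p = 0.0663) and Pglyrp3 did not (1.06, edgeR adjusted p = 0.178). Ivl, which encodes involucrin, was at 0.76 and below the fold limit although its edgeR adjusted p was 0.0231. The late cornified envelope genes Lce1b, Lce1a1 and Lce1m were at -2.52, -2.26 and -2.10, all with every KO column below every WT column, and were not called (edgeR adjusted p of 0.129, 0.122 and 0.102). The share of all tested genes with such a separation downward is not given here. In KO vs HET 1 partner was called, Rptn at 3.01 (edgeR adjusted p = 0.0572), and in HET vs WT 0 were.

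Of 6 keratins and alarmins of stressed epidermis, 1 was called higher in KO than in WT. Krt16, a keratin of wounded epidermis, rose from 24.9 ± 8.13 to 285 ± 165 CPM, a log2 fold change of 3.52 ± 0.60 (edgeR adjusted p = 0.0333). Without WT replicate 2 it was not called (3.53, edgeR adjusted p = 0.121). The median of the list was 2.22. Krt6a, Krt6b, S100a9 and S100a8 were at 3.13, 2.71, 1.73 and 1.71 (edgeR adjusted p of 0.131, 0.188, 0.109 and 0.102), and Krt17 was at -0.11.

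Few candidate upstream factors were called. Of 9 AP-1 subunits, 1 was called, Fosl1, which encodes FRA-1, at 1.24 ± 0.27 (edgeR adjusted p = 0.074), from 1.1 to 2.64 CPM, and without WT replicate 2 it was not called (1.23, edgeR adjusted p = 0.178). Fos was at 0.45, Junb at 0.15, Jun at -0.17 and Fosl2 at 0.06, and none of these passed. Of 18 other epidermal factors 0 were called in either direction and 17 had a positive value, with a median of 0.28. Grhl3, a factor of barrier formation, was at 0.76 with an edgeR adjusted p of 0.0185, under the fold limit. Hopx, Elf3 and Ovol1 were at 0.63, 0.57 and 0.51. The octamer-binding factors Pou2f3 and Pou3f1 were at 0.27 and 0.18 (edgeR adjusted p of 0.321 and 0.462). Of 11 genes of the NRF2 pathway, an oxidative stress response known to act on Sprr2 genes, 1 was called. It was Slpi, which encodes a secreted protease inhibitor and not a transcription factor, at 3.21 (edgeR adjusted p = 0.0231). Slpi was scarce, from 0.141 CPM in WT to 1.41 in KO on average, where 3 counts are 0.0891 to 0.154 CPM in WT columns. Without WT replicate 2 it was at 3.05 (edgeR adjusted p = 0.0968). Nqo1 and Hmox1 were at -0.16 and -0.76. In that list 7 genes had a positive value and 4 a negative one, with a median of 0.21. Krt16, Fosl1 and Slpi were also called in KO vs HET, at 3.0, 1.22 and 2.69 (edgeR adjusted p of 0.0877, 0.0993 and 0.0733), but not without WT replicate 2, and none of these lists had a called gene in HET vs WT.

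Markers of other cell types were read beside these results. The 6 periderm markers summed to 10.1 to 21 CPM in WT, 10.04 to 12.6 in HET and 9.09 to 14.8 in 4 KO columns, but to 346 in KO replicate 4, where Krt8, Krt18 and Krt19 were high. None of the 6 was called, and no marker was at 0 in all columns. The 8 dermal fibroblast markers had their lowest sum in the same column, 14880 CPM against 20180 to 36950 in the other 14, and all 8 had negative log2 fold changes in KO vs WT (median -0.23). KO replicate 4 had the highest Sprr1a and Sprr1b. Without it Sprr1b was at 2.81 (edgeR adjusted p = 0.0446) and remained called, and Sprr2b was at 2.67 (edgeR adjusted p = 0.176) and was not. With the mean log2(CPM + 1) of the dermal markers as a covariate, Sprr1b was at 2.75 (edgeR adjusted p = 0.0756) and remained called, and Sprr2b was at 2.56 (edgeR adjusted p = 0.226) and was not. In that fit Sprr2e, Sprr1a, Sprr2d, Sprr2h and Sprr4 were at 1.21, 1.19, 1.17, 0.68 and -0.19, each lower than without the covariate. Of 5 tested neutrophil markers 1 was called, Cxcr2 at 2.31 (edgeR adjusted p = 0.0891, and 0.215 without WT replicate 2). Summed over 7 neutrophil markers, which include those below the count filter, the level was 6.06 to 8.21 CPM in WT and 5.34 to 22.3 in KO. None of 6 basal keratinocyte, 8 skeletal muscle and 7 erythroid markers was called by edgeR in KO vs WT. Of these, 2, 0 and 0 had an unadjusted p under 0.05, as did 3296 of all 17094 tested genes.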

How the data were processed

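Flash-frozen E18.5 dorsal skin was made into directional poly(A) libraries. Raw read counts per gene symbol were deposited by the authors. The labels name STAR and HTSeq without versions, and the human build hg19 although symbols are murine, so the mouse build, annotation and use of strand are not given in the sources used here. Libraries sharing a title number and genotype were summed into 15 columns.

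Counts were kept by filterByExpr, scaled by TMM and tested over 17094 genes with edgeR 4.0.16 (robust quasi-likelihood, R 4.3.3, 3 genotypes in one fit). Calls needed a Benjamini-Hochberg adjusted p of at most 0.1 and a log2 fold change of at least 1 in either direction. In counts simulated for KO vs WT, edgeR recovered 195 of 200 genes changed 4-fold, with 5 false calls over 16920 genes. The changed genes were drawn from those with a mean above 1 CPM, and counts were drawn independently for each gene. Recovery of scarcer genes, or with shifts shared by the genes of a column, was not measured. Exact permutation tests used log2(CPM + 1) over 252 arrangements. DESeq2 1.42.0 and limma-voom 3.58.1 were alternatives. Members, gene lists and motifs were chosen with earlier results of these data known. Named genes are all Sprr genes, the called genes of each other list or, where it had none, up to 4 with the largest fold changes in KO vs WT, and the 5 genes most correlated. Marker lists without a call are given by their sums and counts, and other list genes were named after their values were seen. RefSeq promoters matched 14 Sprr genes. A count of 0 allows up to 3 counts. Sprr5, Ahsp and Retnlg were not analysed here.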

Additional observations from a re-analysis of the deposited data

Results flagged for a closer look

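Sprr1a in HET replicate 2 stood apart from the other 4 HET columns: the gap from 27.8 CPM to the next column, 10.3 CPM, was 0.71 of the range of the group. Its libraries gave 27.5 and 28.1 CPM. It was the only one of 30 groups examined to pass Dixon's 95% limit, where chance passes about 1 in 20. Without this column Sprr1a was at -0.45 in HET vs WT.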

How the results depend on the processing

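Sprr1b was called in KO vs WT and in KO vs HET under 28 of 29 alternatives each, and not with title series 1 alone (log2 fold change 2.57 and 2.85, edgeR adjusted p 0.522 and 0.249). Against 2 members called in KO vs WT, 1 was called at an adjusted p of 0.05, without a count filter, at a mean of at least 50 counts, with only the 2 genotypes, or with the dermal covariate. DESeq2 called 5, 24 separate libraries 6, and title series 1 alone 0. Leaving out 1 column gave 1 to 6. For KO vs HET the same settings gave 1, 5, 6 and 0, limma-voom and the covariate for numbers in both series gave 1, and leaving out 1 column gave 1 to 5. The share of all tested genes called under each setting is not given here, so these counts cannot be read as particular to Sprr genes. Sprr2b lost its KO vs WT call without any of WT replicates 1, 2, 3 and 5, HET replicates 1, 2, 3 and 5, or KO replicates 1 and 4, and its KO vs HET call without the same columns other than WT replicate 1. Without KO replicate 5, Sprr2e joined in KO vs WT and Sprr2d and Sprr2e in KO vs HET, and without HET replicate 4 Sprr2e joined in KO vs HET. With all Sprr2 symbols summed before the fit, Sprr1b was the only listed gene called of Sprr1a, Sprr1b and Sprr4. The cause of these changes was not tested, except that separate libraries enter a title number more than once.

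In HET vs WT 0 members were called under all 29 alternatives, and signs changed for values near 0. Sprr1a was at -0.069 with limma-voom, -0.014 with the dermal covariate and -0.45 to 0.48 with 1 column left out. Sprr1b was at -0.072 with separate libraries, -0.28 in series 1, -0.056 with the dermal covariate and -0.19 to 0.40 with 1 column left out. Sprr2b was at 0.23 with limma-voom, 0.021 in series 2 and -0.62 to 0.23 with 1 column left out. Sprr4 was at -0.18 with limma-voom and -0.53 to 0.64 with 1 column left out. With the dermal covariate Sprr4 was at -0.19 in KO vs WT and -0.20 in KO vs HET, and leaving out 1 column gave -0.051 to 1.12 in the latter. KO as a percent of WT ran from 218 to 441 for Sprr3, 401 to 528 for the 8-gene sum and 195 to 309 for the Sprr2 sum with 1 column left out, and 7 to 16 ratios passed. No paired analysis was possible because the genotypes share no title number. Low counts limit Sprr3 and Sprr4, with at most 8 and 24 in a column, and Sprr4 also varied widely between columns of a genotype.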
